A study of Mus musculus with 6 samples.

Results

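The 37 genes described here encode ribosome biogenesis factors, the nucleolar proteins that transcribe, fold, modify and cut ribosomal RNA (rRNA) and assemble it into the small and large ribosomal subunits. They were chosen as a named list, and each gene is read through the brightest of its probes on Illumina bead arrays, by mean log2 intensity over 6 arrays. All 37 had at least 1 probe, and 33 lay above the median of all probes (7.48 on the log2 scale) and were tested. The arrays came from mouse bone marrow cells sorted by Ly6C, a surface protein carried at a high level by classical monocytes. The Ly6C low sort is called granulocytic progenitors (GP, n = 3). The Ly6C high sort is called monocyte-like precursors of granulocytes (MLPG, n = 3). The labels used here give no strain, age, sex or treatment for the mice. They also do not say that replicates were separate animals, so every p-value covers the spread of these samples alone, part of which may be technical. In bulk samples, fewer cells of a type and less RNA per cell cannot be told apart.

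A ribosome starts as one long rRNA precursor made by RNA polymerase I. Small nucleolar ribonucleoprotein particles (snoRNPs) of the box C/D and box H/ACA classes modify it, the small-subunit processome cuts and folds one portion, and a separate set of factors builds the large subunit. Most of these roles were worked out in budding yeast and human cells. The genes are well known as targets of Myc, which binds the E-box CACGTG. In granulocyte development nucleoli are prominent in promyelocytes and are lost as cells mature.

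Promoters are shown first, to give the sequence context of the genes and of the E-box. RefSeq promoter windows (GRCm38.p6, 300 bases, from 250 before to 50 after the annotated start) were found for 33 of the 37 genes. The E-box, searched as the letters CACGTG, which read the same on both strands, occurred in 8 of these 33 genes (24.2%), against 16.7% of 96 other ribosome biogenesis genes with a window, 11.5% of 9244 named genes past the intensity filter and 8.09% of all 27025 genes with a window. The letters CCGGAAGT, which are bound by ETS factors, occurred on either strand in 6 of 33 (18.2%), against 33.3%, 8.83% and 4.31% of the same 3 sets. The letters GCATGCGC, the core of the NRF1 site, occurred on either strand in 2 of 33 (6.06%, against 9.38%, 5.6% and 3.05%), and TCTCGCGA, the core of the ZBTB33 site, in 3 of 33 (9.09%, against 4.17%, 2.43% and 1.13%). The letters of the 4 motifs do not contain one another, and a match is a description of the window and not a measured binding site.

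The windows of 4 genes are printed, with the E-box in capitals. Pes1 at chr11:3963725-3964024 (plus strand), Wdr43 at chr17:71615965-71616264 (plus strand) and Grwd1 at chr7:45830740-45831039 (minus strand) carry an E-box just after the start, with its first base at position 3, 18 and 35 of the transcript. Nob1 at chr8:107424989-107425288 (minus strand), the gene with the largest difference between the sorts, has no E-box in its window.
Pes1: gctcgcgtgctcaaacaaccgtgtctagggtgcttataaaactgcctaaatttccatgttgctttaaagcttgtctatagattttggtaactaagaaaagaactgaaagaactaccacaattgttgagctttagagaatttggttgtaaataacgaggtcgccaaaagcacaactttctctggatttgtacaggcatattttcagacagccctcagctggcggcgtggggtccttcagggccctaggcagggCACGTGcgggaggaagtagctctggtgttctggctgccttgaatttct
Wdr43: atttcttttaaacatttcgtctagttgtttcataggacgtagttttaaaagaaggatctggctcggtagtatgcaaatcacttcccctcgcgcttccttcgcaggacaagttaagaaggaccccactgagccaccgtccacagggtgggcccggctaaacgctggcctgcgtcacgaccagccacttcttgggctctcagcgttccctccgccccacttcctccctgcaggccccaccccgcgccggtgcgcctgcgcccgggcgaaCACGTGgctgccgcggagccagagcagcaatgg
Grwd1: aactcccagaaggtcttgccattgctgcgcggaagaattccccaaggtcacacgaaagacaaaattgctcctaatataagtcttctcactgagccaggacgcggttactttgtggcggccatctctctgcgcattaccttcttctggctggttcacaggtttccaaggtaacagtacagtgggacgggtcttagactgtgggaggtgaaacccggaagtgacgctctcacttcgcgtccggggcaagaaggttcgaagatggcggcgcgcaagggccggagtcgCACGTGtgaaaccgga
Nob1: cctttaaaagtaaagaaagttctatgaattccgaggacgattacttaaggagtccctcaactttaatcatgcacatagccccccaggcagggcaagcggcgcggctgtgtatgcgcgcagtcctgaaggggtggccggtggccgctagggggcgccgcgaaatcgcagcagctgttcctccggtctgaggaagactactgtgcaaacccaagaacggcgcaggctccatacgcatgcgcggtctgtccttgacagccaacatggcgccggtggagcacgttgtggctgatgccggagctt
The other E-boxes began at position -121 from the start in Imp4 and -60 in Nop2, and at positions 41, 25 and 38 after it in Mybbp1a, Tsr1 and Utp20. Among tested members the median log2 difference was 0.34 for the 7 with an E-box and 0.30 for the 22 with a window and no E-box. The difference between these 2 medians was not tested.

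In the comparison of MLPG with GP, 32 of the 33 tested members had a log2 difference above 0, with a median of 0.30, where 51.7% of all 15440 features were above 0 and their median was 0.01. The 4 members below the filter were dim and all lower in MLPG. Their brightest probes differed by -0.06 for Dkc1, -0.1 for Utp20, -0.15 for Nop16 and -0.2 for Wdr12. With no filter on low values, 32 of the 37 members were above 0, with a median of 0.285. Differences of the tested members were small, between 0.997-fold for Polr1a and 1.40-fold for Nob1. None passed the test one by one: limma called 0 of 33 at an adjusted p under 0.05, where 0.512% of all features were called (79, of them 0.142% higher in MLPG). At an unadjusted p under 0.05 there were 8 members, all higher in MLPG, where 7.23% of all features were higher at that threshold. In 11 of the 33 every MLPG array lay above every GP array, where the same held for 10.7% of all features. With the replicate number as a block 0 members were called and 21 were higher at an unadjusted p under 0.05, where 4.08% of features were called and 10.7% were higher at the unadjusted threshold. GP array 1 held much of the difference: without it the median was 0.13 and 28 of 33 members were above 0, where 52.7% of all features were. Without it limma called 0 members, where 0.596% of features were called, and 3 members (Nob1, Pes1 and Ddx21) were higher at an unadjusted p under 0.05, where 5.23% of features were. The number of members with no overlap stayed at 11 without GP array 1, where 15.0% of all features were so. That number could not change, because in every tested member GP array 2 or GP array 3 lay above GP array 1. It therefore does not show how far the result rests on GP array 1.

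**Figure D1:**
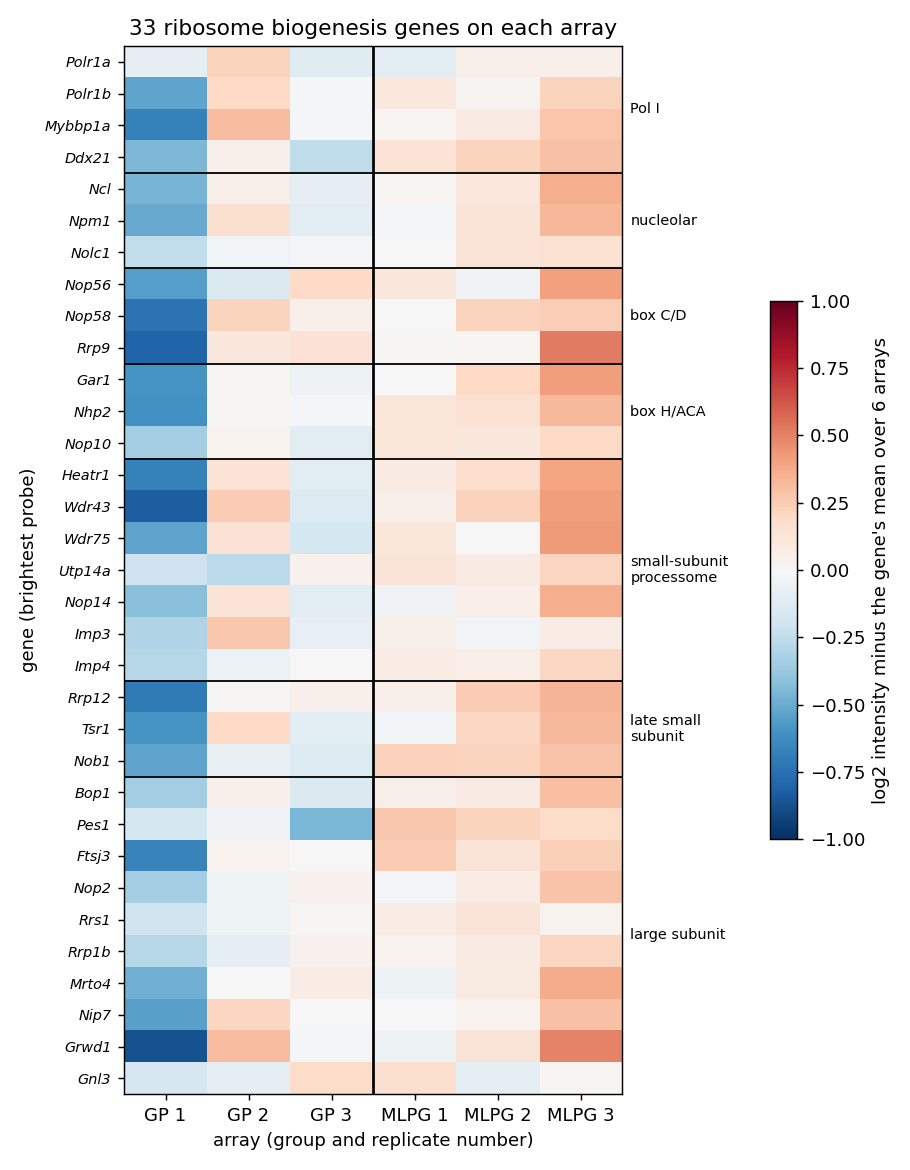
Heat map of the 33 tested genes (rows, by role) on the 6 arrays (columns), coloured by log2 intensity minus the gene's mean over the 6 arrays. GP array 1 is the lowest array in 30 of 33 genes, and MLPG array 3 the highest in 26.

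The arrays did not split evenly into 2 sorts. GP array 1 was the lowest of the 6 in 30 of 33 members, where this held for 25.5% of all features, and MLPG array 3 was the highest in 26 of 33, where this held for 20.7%. Taken as the median over members of log2 intensity minus the gene's mean over 6 arrays, replicates 1 to 3 had values of -0.51, 0.05 and -0.02 in GP and of 0.06, 0.10 and 0.29 in MLPG. GP arrays 2 and 3 were thus close to MLPG arrays 1 and 2, and the gaps that stand out are those of GP array 1 below and MLPG array 3 above. In all 33 members the SD over the GP arrays was larger than that over the MLPG arrays, where this held for 63.8% of all features. The median SD was 0.30 in GP and 0.14 in MLPG on the log2 scale.

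Other gene groups also differed between arrays of one sort. The first principal component over all features (49.6% of the variance) placed GP array 1 at -30.1, the other GP arrays at -6.37 and -13.1, and the MLPG arrays between 12.37 and 22.23. Of 11 listed eosinophil genes 7 were measured, all 7 with a difference below 0, and their summed intensity was 56580, 133500 and 119700 on the GP arrays and 4596 to 7715 on the MLPG arrays. Of 17 listed monocyte genes 15 were measured, all 15 above 0, with a summed intensity of 18920, 41010 and 28110 on the GP arrays and 60730 to 71300 on the MLPG arrays. Of 20 listed mature neutrophil genes 17 were measured, 16 of them below 0, with a summed intensity of 441500, 359100 and 454900 on the GP arrays and 298600 to 305000 in MLPG, so that GP array 2 was the lowest of the GP arrays here. Of 12 listed erythroid genes 9 were measured, 8 of them below 0 with a median of -0.44, and limma called 0 (5 lower at an unadjusted p under 0.05). Their median deviation was 0.20, 0.15 and 0.09 on GP arrays 1 to 3 and 0.02, -0.15 and -0.39 on MLPG arrays 1 to 3, highest on the array where most biogenesis genes were lowest and lowest where most were highest. Their summed intensity, 14820 to 17240 in GP and 13840 to 15670 in MLPG, overlapped. Most of that sum was Tfrc, the 1 gene above 0, at 8921 to 12550 in GP and 11870 to 12280 in MLPG. In 6 of the 9 genes every MLPG array lay below every GP array, as in 1492 of all 15440 features. Limma with the replicate block called 3 of the 9 as lower, where 4.08% of all features were called. Of 10 listed stem and early progenitor genes 9 were measured, 8 of them below 0 with a median of -0.14. Limma called 1 of the 9, Gata2, as lower in MLPG (adjusted p = 0.038), where 0.512% of all features were called. Their median deviation was 0.01, 0.53 and -0.02 on GP arrays 1 to 3 and -0.16, -0.03 and -0.13 on MLPG arrays 1 to 3. The part of these groups in the differences of the biogenesis genes was not tested. All 8 listed granulocyte progenitor markers were measured, 5 of them above 0 and 3 below. Elane (neutrophil elastase) was at 67780 ± 482 in GP and 70200 ± 728 in MLPG (n = 3), close to the top of the scale. Limma called 1 of the 8, where 0.512% of all features were called. This was Ctsc, named after its values were seen, at 4549 ± 735 in GP and 12780 ± 1310 in MLPG (n = 3; limma adjusted p = 0.012). Ly6c1, the 1 gene of the sort antigen that was read here, was at 35790 ± 4440 in GP and 47580 ± 5060 in MLPG (n = 3; limma adjusted p = 0.20). Of 15 listed B, plasma and T cell genes 5 were measured, with a summed intensity of 2002 to 2321 in GP and 2176 to 2299 in MLPG, and Pax5, Ms4a1 and Cd3e were among those below the filter. The B cell gene Cd79b was at 1152 ± 215 in GP, lowest on GP array 1 at 915.1, and 1397 ± 19.3 in MLPG (n = 3). The T cell gene Cd3d, named after its values were seen, was at 328.3 ± 30.0 in GP and 192.5 ± 28.0 in MLPG without overlap (n = 3; limma adjusted p = 0.054, and 0.021 with the replicate block).

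**Figure D2:**
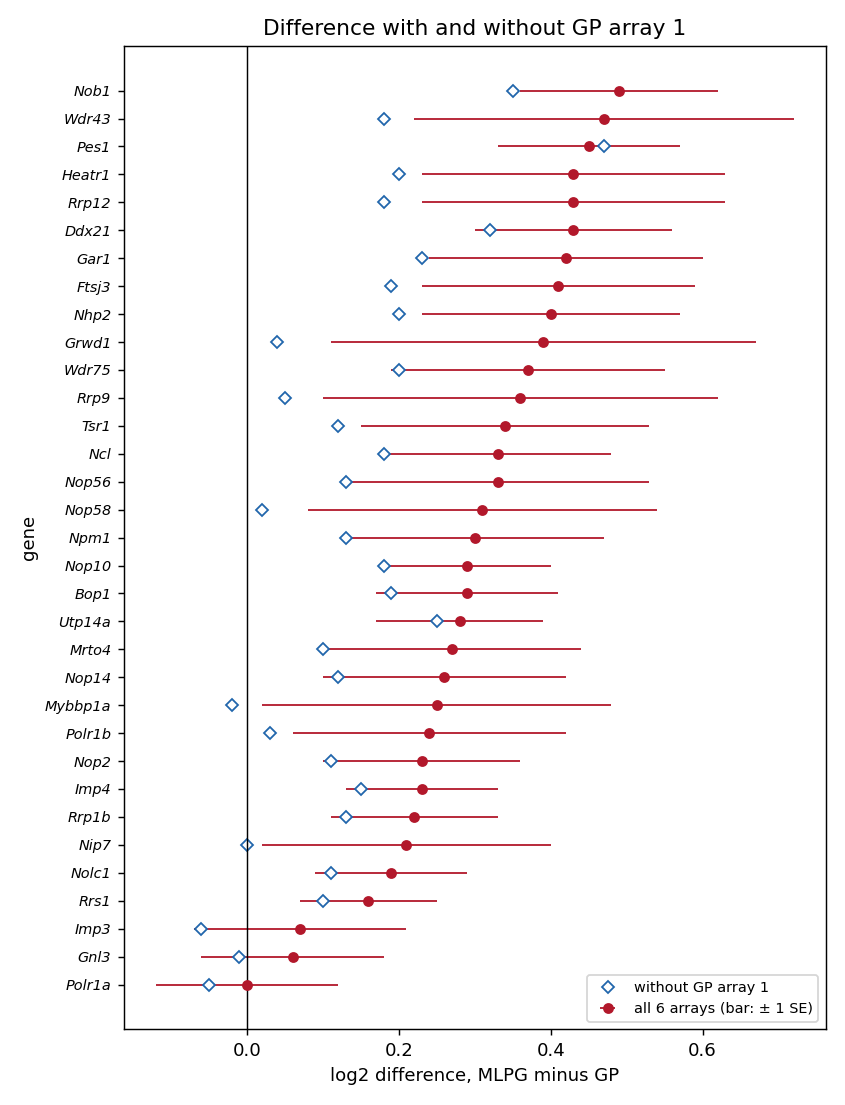
Log2 difference (MLPG minus GP, x axis) of each of the 33 genes (y axis) over all 6 arrays, with ± 1 SE as bars, and without GP array 1 as open diamonds. All 33 points but that of Pes1 move down without GP array 1, and Mybbp1a, Imp3, Gnl3 and Nip7 change sign.

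Among genes of rRNA transcription, Polr1a differed least over all 6 arrays. Polr1a encodes the largest subunit of RNA polymerase I. Its intensity was 4958, 6172 and 4857 on GP arrays 1 to 3 and 4884, 5499 and 5485 on MLPG arrays 1 to 3, and the groups overlapped fully. Dimmer probes of Polr1a that passed the filter differed by -0.27, -0.12 and -0.06 on the log2 scale. Polr1b, the second-largest subunit, was at 1355, 2244 and 1928 in GP and 2107, 1990 and 2285 in MLPG. GP array 1 was low and the others overlapped, with a log2 difference of 0.24 ± 0.18 (SE; limma adjusted p = 0.59) that was 0.03 without that array. Mybbp1a, a Myb-binding nucleolar protein, ranged from 6009 to 11870 in GP and from 9720 to 11650 in MLPG. Its difference of 0.25 became -0.02 without GP array 1. The dimmer Mybbp1a probes that passed the filter differed by more over all 6 arrays, at 0.49, 0.36 and 0.47.

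Ddx21, a nucleolar RNA helicase that binds rRNA precursors and snoRNAs, separated the sorts more clearly. It was at 2681, 3787 and 3077 in GP and at 4021, 4260 and 4487 in MLPG. All 3 MLPG arrays lay above all 3 GP arrays. The log2 difference was 0.43 ± 0.13 (SE; limma adjusted p = 0.21), and its dimmer probe differed by 0.15. Ddx21 was the 1 member that any alternative called: without GP array 2 the difference was 0.57 (limma adjusted p = 0.049, within a range up to 0.54 over all alternatives), where 2.25% of all features were called.

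The abundant nucleolar proteins were lowest on GP array 1 and highest on MLPG array 3. Npm1 encodes nucleophosmin, a histone chaperone that also takes part in the export of ribosomal subunits. It was at 34720, 55260 and 45690 in GP and at 49070, 53960 and 62220 in MLPG. GP array 2 lay above MLPG arrays 1 and 2, and the difference was 0.30 ± 0.17 (SE; limma adjusted p = 0.47), read on a probe whose MLPG array 3 value neared the highest on the arrays, 71670. Ncl, which encodes nucleolin, an RNA-binding protein of the nucleolus, was at 2902, 4161 and 3756 in GP and at 4061, 4290 and 5150 in MLPG. Here again GP array 2 overlapped the MLPG range, with a difference of 0.33 ± 0.15 (SE; limma adjusted p = 0.37) and of 0.24 on its dimmer probe. Nolc1, a chaperone of snoRNPs, was dim at 232.9 ± 20.6 in GP and 265.2 ± 14.2 in MLPG (n = 3), and its groups did not overlap.

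Of the box C/D core proteins, on which ribose methylation of rRNA depends, Nop58 was at 9069, 17670 and 15700 in GP and at 15080, 17610 and 17950 in MLPG. GP arrays 2 and 3 lay within the MLPG range, and GP array 1 lay far below it. The Nop58 difference of 0.31 ± 0.23 (SE; limma adjusted p = 0.59) was 0.02 without GP array 1. Nop56, its partner in the same particle, was at 2762, 3664 and 4648 in GP and at 4372, 3955 and 5371 in MLPG, and it overlapped as well. Rrp9, a protein of the U3 snoRNP, showed the same low GP array 1, at 773.8 against 1457 and 1486 on the other GP arrays, and its difference of 0.36 was 0.05 without it.

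The box H/ACA proteins form the enzyme that turns uridine into pseudouridine in rRNA. All 3 tested members of this role were higher in MLPG at an unadjusted p under 0.05 (limma), where 7.23% of all features were. Nhp2 was at 1798, 2768 and 2701 in GP and at 2960, 3036 and 3419 in MLPG. Nop10 was at 3671, 4801 and 4323 in GP and at 5082, 5056 and 5366 in MLPG. In both genes every MLPG array lay above every GP array, with log2 differences of 0.40 ± 0.17 and 0.29 ± 0.11 (SE; limma adjusted p = 0.33 and 0.31). Gar1 was at 7723, 11810 and 11230 in GP and at 11710, 13400 and 15550 in MLPG, where GP array 2 overlapped MLPG array 1, with a difference of 0.42 ± 0.18 (SE; limma adjusted p = 0.33). Without GP array 1 the 3 differences were 0.20 for Nhp2, 0.18 for Nop10 and 0.23 for Gar1. Of the 3, 0 were then at an unadjusted p under 0.05 (limma), where 5.23% of all features were higher at that threshold. Dimmer probes differed by 0.22 for Nhp2, -0.11 for Nop10 and 0.13 for Gar1. Dkc1, the catalytic subunit dyskerin, was read by 2 probes that both lay below the filter. Its brighter probe was at 162.1 ± 5.71 in GP and 155.9 ± 10.9 in MLPG (n = 3), near the array median of 179.3, a level at which background makes up much of the signal.

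In the small-subunit processome 7 of 8 members were tested, and all 7 had a difference above 0. Heatr1, a subunit that links transcription to processing, was at 8788, 15460 and 13020 in GP and at 14820, 15810 and 18470 in MLPG. GP array 2 lay within the MLPG range, and the difference was 0.43 ± 0.20 (SE; limma adjusted p = 0.37). Wdr43, another subunit of that kind, was at 1166, 2456 and 1876 in GP and at 2148, 2414 and 2752 in MLPG. Its difference of 0.47 ± 0.25 (SE; limma adjusted p = 0.43) was the one behind that of Nob1 in size and was 0.18 without GP array 1. Utp14a, which in yeast activates a helicase of the processome, was not lowest on GP array 1. It was at 290.6, 278.9 and 345.9 in GP and at 366.6, 355.2 and 389.3 in MLPG, lowest on GP array 2. Its groups did not overlap, and its difference of 0.28 ± 0.11 (SE; limma adjusted p = 0.28) was 0.25 without GP array 1.

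The U3-binding proteins Imp3 and Imp4 differed from each other in pattern. Imp3 was at 5032, 7464 and 5850 in GP and at 6447, 6070 and 6497 in MLPG, so its brightest array was a GP array, and its difference of 0.07 became -0.06 without GP array 1. Imp4 was at 7652, 8952 and 9308 in GP and at 9824, 9790 and 10780 in MLPG, with no overlap, and its 2 probes differed by 0.23 and 0.24. Wdr75 and Nop14, both processome subunits, differed by 0.37 and 0.26 with groups that overlapped. Utp20, a large scaffold protein of the processome, had 1 probe, below the filter, at 119.9 to 149.6 in GP and 112.9 to 134.1 in MLPG.

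Of the factors of later small-subunit maturation, Nob1 had the largest difference of all members. Nob1 is the endonuclease that makes the final cut of small-subunit rRNA. It was at 1501, 2057 and 1961 in GP and at 2534, 2514 and 2632 in MLPG. All MLPG arrays lay above all GP arrays and close to one another, and the difference was 0.49 ± 0.13 (SE; limma adjusted p = 0.16, and 0.054 with the replicate block). A dimmer Nob1 probe differed by 0.39, and without GP array 1 the difference was 0.35 (limma adjusted p = 0.22, unadjusted p = 0.0055). Rrp12, which acts in nuclear export of subunits, was at 2434, 4010 and 4132 in GP and at 4131, 4747 and 5052 in MLPG, where GP array 3 touched the MLPG range. Tsr1, a factor resembling a GTPase, was at 512.1 ± 135 in GP and 633.6 ± 77.9 in MLPG (n = 3), with a difference of 0.34 that was 0.12 without GP array 1.

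Among large-subunit factors, Pes1 and its partners could be followed only in part. Pes1, Bop1 and Wdr12 form the complex called PeBoW, which acts on the large-subunit precursor. Pes1 was at 1316, 1444 and 1079 in GP and at 1783, 1726 and 1684 in MLPG, with no overlap. Its lowest array was GP array 3 and its highest was MLPG array 1, unlike most members. The difference was 0.45 ± 0.12 (SE; limma adjusted p = 0.17, and 0.057 with the replicate block), and it was 0.47 without GP array 1. Bop1 was at 2195, 2884 and 2529 in GP and at 2903, 2948 and 3429 in MLPG, with no overlap but a narrow gap, and a difference of 0.29 ± 0.12 (SE; limma adjusted p = 0.33), while its dimmer probe differed by -0.02. The 1 probe of Wdr12 lay below the filter and below the array median. It was at 134.1 ± 3.36 in GP and 117.3 ± 16.1 in MLPG (n = 3). Its groups did not overlap, with MLPG the lower, as in 1492 of the 15440 tested features.

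The other large-subunit factors ranged from no visible difference to one near that of Nhp2. Ftsj3, an rRNA methyltransferase, was at 1221, 1987 and 1940 in GP and at 2311, 2112 and 2284 in MLPG, without overlap, with a difference of 0.41 ± 0.18 (SE; limma adjusted p = 0.35) and of 0.19 without GP array 1. Grwd1, a WD-repeat histone-binding protein, had the widest spread within GP, at 513.3, 1163 and 932.0, and lay at 909.2, 1026 and 1329 in MLPG. Its difference of 0.39 was 0.04 without GP array 1, and GP arrays 2 and 3 averaged 1.02 on the log2 scale above GP array 1. Differences were 0.23 for Nop2, an rRNA cytosine methyltransferase, 0.22 for Rrp1b, 0.27 for Mrto4, which resembles a ribosomal stalk protein, and 0.21 for Nip7, all with groups that overlapped. Rrs1, which in yeast helps to place the smallest large-subunit rRNA, was dim at 182.0 ± 13.7 and 202.6 ± 6.43 (n = 3), without overlap. Gnl3, the GTPase nucleostemin, was dim and overlapped, at 188.9 ± 25.3 and 195.7 ± 17.5 (n = 3). Rrs1 and Gnl3, both at a mean of 7.58, lay just inside the filter at 7.48, and Dkc1 at 7.31 and Nop16 at 7.19 were the nearest outside. Nop16, another large-subunit factor, was at 154.1 ± 13.7 in GP and 138.3 ± 3.58 in MLPG (n = 3).

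Second probes showed mostly the same direction. Of 73 probes of the 37 genes 57 passed the filter, and 16 genes had several. Of their 24 dimmer probes 19 had a difference above 0 and 5 below 0, with a median of 0.23. The 5 were 3 probes of Polr1a and 1 each of Nop10 (-0.11) and Bop1 (-0.02).

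**Figure D3:**
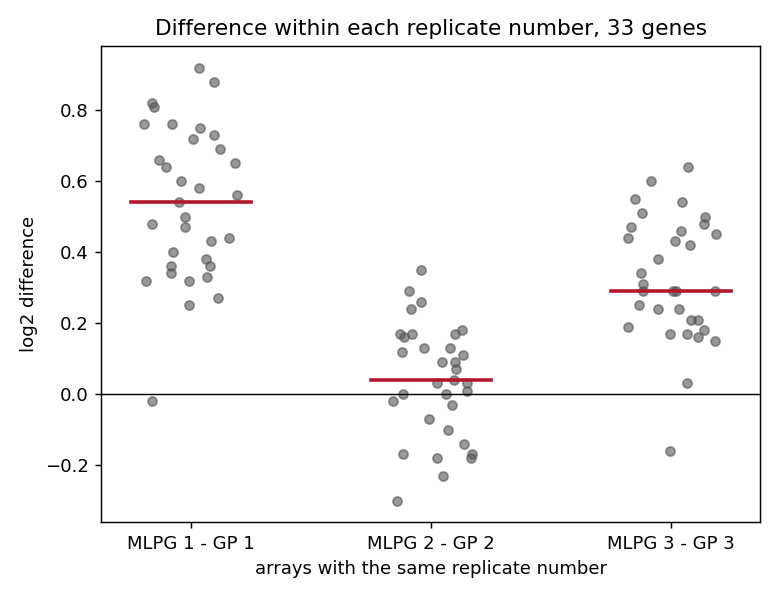
Log2 difference within arrays of the same replicate number (x axis), 1 point for each of the 33 genes, with the median as a red line. Medians are 0.54, 0.04 and 0.29 for replicates 1, 2 and 3.

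Within arrays of the same replicate number the members behaved differently. The median difference was 0.54 between MLPG 1 and GP 1, with 32 of 33 members above 0 (50.2% of all features), and 0.29 between MLPG 3 and GP 3, with 32 of 33 above 0 (53.8%). Between MLPG 2 and GP 2 the median was 0.04, with 21 of 33 above 0 (48.7%). Nob1, Pes1 and Utp14a were among those above 0 within all 3 numbers, at 0.76, 0.29 and 0.42 for Nob1, at 0.44, 0.26 and 0.64 for Pes1 and at 0.34, 0.35 and 0.17 for Utp14a. Mybbp1a, Grwd1 and Imp3 were above 0 for numbers 1 and 3 and at -0.23, -0.18 and -0.30 for number 2.

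The wider pathway was read through 119 further ribosome biogenesis genes, of which 102 were measured. Their median difference was 0.18, with 90 above 0 and 12 below. Limma called 0 of the 102, where 0.512% of all features were called, and at an unadjusted p under 0.05 there were 17 higher in MLPG, where 7.23% of all features were, and 1 lower. By role the medians were 0.15 for 11 other genes of the polymerase I machinery, 0.20 for 4 other snoRNP and assembly genes, 0.17 for 34 other small-subunit genes, 0.20 for 44 other large-subunit genes and 0.17 for 9 exosome and exonuclease genes. The brightest of each role were Polr1d (a subunit shared with RNA polymerase III) at 0.06, Ruvbl2 (an assembly helicase) at 0.21, Ddx47 (a small-subunit helicase) at 0.10, Nsa2 (a large-subunit factor) at 0.26 and Exosc7 (an exosome ring subunit) at 0.14, all log2 differences that did not pass. GP array 1 was lowest in 72 of the 102, and without it their median was 0.07.

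Ribosomal proteins and cell cycle genes did not share the low GP array 1 to the same degree, as a description and without a test of the difference. The 57 measured cytosolic ribosomal protein genes had a median difference of 0.08, with 45 above 0. Their median deviation on GP array 1 was -0.09, against -0.51 for the 33 factors. The ribosomal protein genes were brighter, at a mean log2 of 13.95 to 14.18 on the arrays, against 10.86 to 11.62 for the factors. The part of brightness in the smaller deviation was not tested. GP array 1 was still the lowest array in 33 of the 57, against 30 of the 33 factors and 25.5% of all features. For 22 S phase genes the median difference was 0.03 and the deviation on GP array 1 was -0.08, with that array lowest in 10 of them. For 18 G2/M genes the median difference was 0.03 and GP array 1 was the highest GP array, at 0.20 against -0.19 and -0.09, so that it was low in biogenesis factors and high in mitotic genes. The part of cell cycle state in the biogenesis values was not tested.

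**Figure D4:**
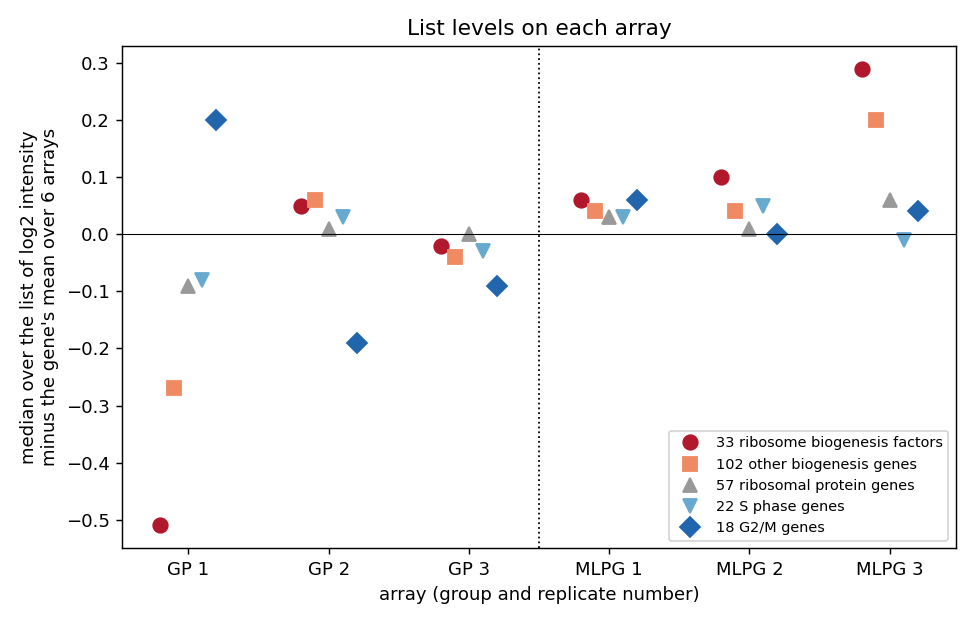
Median over each gene list of log2 intensity minus the gene's mean over 6 arrays (y axis) on each array (x axis), 1 symbol per list. On GP array 1 the 33 factors sit at -0.51, other biogenesis genes at -0.27, ribosomal protein genes at -0.09 and G2/M genes at 0.20.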

How the data were processed

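Total RNA of each of 6 sorted mouse marrow samples was labelled with biotin and hybridised to its own Illumina bead array. The deposited normalized intensity values of 45281 probes were used, on a linear scale. Per the submitters' processing notes the software was GenomeStudio; for its version, settings and background step nothing is given in the sources used here. The 6 columns share 1 minimum (88.2), median (179.3), mean (1501) and maximum (71670), so the deposited intensity values are quantile normalized, which removes overall differences in RNA amount, and background remains in them, which compresses differences of dim probes. The 12 columns of another deposited table match no sample's labels and were not used; neqc on raw signals was the plan, with these values as fallback.

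Gene names came from the platform annotation (34885 probes with 1 symbol, 10396 with none or several). Probes with a mean log2 above the median of all probes (7.48) were kept, the brightest stood for a gene, and unnamed probes stood for themselves, giving 15440 features, 11348 of them named. Differences, MLPG minus GP, were tested with lmFit and eBayes of limma 3.58.1 (R 4.3.3), with Benjamini-Hochberg adjustment over all features and a call at an adjusted p under 0.05. The test was tried on simulated arrays with independent noise for each gene. Shifts shared by many genes on 1 array were not part of that trial. Intensities are mean ± SD of 3 arrays; 3 arrays a group limit the precision. All 37 members could be named; of other lists the brightest genes. Members and lists were chosen with earlier results of these data known.

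Deviations from group means correlated between same-numbered arrays at 0.38, 0.30 and 0.47 for numbers 1, 2 and 3, above the 0.1 set for a pairing. The pairing comes from the data, not the labels. Alternatives were cyclic loess, background subtraction, 2 other filters, the mean of probes, the replicate block, array weights, a trended robust prior and leaving out each array. RefSeq promoters were searched for motifs on both strands.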

Additional observations from a re-analysis of the deposited data

How the results depend on the processing

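The count of members called was 0 under all 8 alternatives that kept every array, and 0 to 1 when each array was left out in turn; the 1 was Ddx21 without GP replicate 2, and the count of other biogenesis genes called moved likewise from 0 to 1, the 1 being Nifk, chosen after its values were seen. Members above 0 numbered 28 to 33 when 1 array was left out. The median of members lay between 0.13 (without GP replicate 1) and 0.44 (without GP replicate 2), and between 0.21 and 0.33 under the 8 alternatives that kept every array. That of other biogenesis genes lay between 0.07 and 0.24 when 1 array was left out.

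All features called numbered 79, but 220 with array weights, 146 with no filter on low values, 630 with the replicate block, and 2 to 348 when 1 array was left out. Members at an unadjusted p under 0.05 numbered 8, but 5 with array weights, cyclic loess or the mean of probes, 4 with background subtraction or the stricter filter, 13 with no filter, 21 with the replicate block, and 3 to 19 when 1 array was left out. Of 458 values of single members under the 14 alternatives, 9 had the other sign, none of them called. Under the replicate block, the trended robust prior and the 2 other filters the difference of a tested member stays the same by design. Those values are among the 458 and could not change sign. With array weights Polr1a was at 0.016 and Gnl3 at -0.006. When 1 array was left out, Polr1a ranged from -0.067 to 0.106, and was at 0.052 without MLPG replicate 1. Gnl3 ranged from -0.015 (without GP replicate 1) to 0.162, and was at -0.011 without MLPG replicate 1. Mybbp1a ranged from -0.021 to 0.47, Imp3 from -0.061 to 0.224 and Nip7 from -0.003 to 0.375, each lowest without GP replicate 1. The cause was not tested. The replicate block changed no call of a member. Dim probes such as those of Nolc1, Rrs1 and Gnl3 lie near background, which limits what their differences show.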
